A study of Mus musculus with 17 samples.

Results

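The transcriptional state of hematopoietic stem and progenitor cells (HSPC) of bone marrow, the precursors of every blood lineage, was compared between mice injected with lipopolysaccharide (LPS) 24 h before harvest and mice injected with phosphate-buffered saline (PBS). LPS is a component of the outer membrane of Gram-negative bacteria. The comparison used every library that the labels place in these groups, 3 LPS libraries and 5 PBS libraries, which are 8 of the 17 libraries of the study. The other 9 libraries entered the fit through the low-count filter and the estimate of spread. All mice were wild-type C57BL/6J, an inbred laboratory strain, injected intraperitoneally, and HSPC were sorted by flow cytometry from bone marrow before polyadenylated RNA was sequenced. Neither group received the antibody against the interleukin-10 receptor used elsewhere in the study. The PBS libraries carry day 0 in their titles, and the protocol names PBS injection 24 or 72 h before harvest without saying which applies. The amount of LPS is written as 5 µg in the design text and as 5 mg in the sample protocol. The antibodies that defined the sort, the age and sex of the mice, and whether a library holds 1 mouse or a pool are not given in the sources used here. Replicates are libraries that the titles number separately. P-values therefore measure the spread between these libraries, which may in part be technical.

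Bacterial LPS is detected by Toll-like receptor 4 (TLR4) with its co-receptors MD-2 (Ly96) and CD14. The adaptor MyD88 links the receptor to NF-kB and to inflammatory cytokines, and the adaptor TRIF (Ticam1) links it to type I interferon. HSPC carry TLR4 themselves and also respond to cytokines and interferons released by mature cells of the marrow. In emergency myelopoiesis, the response of the marrow to infection, progenitors divide and shift toward making neutrophils and monocytes, and lymphoid output falls.

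Library totals were 11879018 to 15597602 counts with PBS and 13512622 to 16006001 counts with LPS. LPS library 1 stood apart: 16431 genes were detected in it, against 17348 to 18778 in the other 7, and its scaling factor was 0.799. The first principal component held 66.7% of the variance and separated the groups, with PBS libraries at -58.8 to -18.5 and LPS libraries at 43.2 to 92.7, where library 1 was highest. Of 35321 gene symbols, 14920 passed the filter on low counts. Between LPS at 24 h and PBS, 5616 of them (37.6%) were called at an adjusted p below 0.05 by edgeR's quasi-likelihood test. The share called higher was 19.1% (2849 genes) and the share called lower was 18.5% (2767 genes). With upper-quartile scaling in place of the trimmed mean of M-values (TMM), 2030 genes were higher and 3490 lower, and the median log2 change of all genes moved from -0.03 to -0.16. Without LPS library 1 the fit called 3361 genes, 1798 higher and 1563 lower. All 5616 called genes kept their direction in each other setting in which they could be tested. Decreases were larger than increases: of the 2043 genes called with at least a 2-fold change, 436 were higher and 1607 lower. Increases lay among abundant genes. Of the 3730 genes with the highest mean expression 1401 were higher and 370 lower, and of the 3731 with the lowest 88 were higher and 973 lower. In the text below, levels are CPM (counts scaled to a common library size with TMM factors), listed in the order of the library numbers, changes are log2 differences of LPS minus PBS ± SE from the fit (3 and 5 libraries), and adjusted p-values are edgeR's with Benjamini-Hochberg adjustment over all tested genes.

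The libraries carried the markers of HSPC. Kit, the receptor for stem cell factor, was at 407, 347, 426, 332 and 482 CPM with PBS and 228, 292 and 352 CPM with LPS. Cd34 was at 634, 657, 651, 686 and 825 CPM with PBS and 364, 454 and 377 CPM with LPS. Transcripts of mature cells were also present, and several moved with the treatment. The 20 markers of resident marrow macrophages, the cells that clear dying cells and recycle iron, summed to 1053 to 6428 CPM with PBS, with library 2 highest, and to 454.6 to 497.5 CPM with LPS. All 20 had a lower mean with LPS and 19 fell. Mrc1, the mannose receptor, was at 26.8, 266, 59.95, 46.1 and 108 CPM with PBS and 1.30, 1.24 and 0.447 CPM with LPS, and fell by 6.70 ± 1.25 (adjusted p = 0.0013). C1qa, a chain of complement C1q, was at 22.05, 265, 43.9, 48.2 and 94.04 CPM and 3.71, 2.197 and 2.42 CPM, and fell by 5.10 ± 1.28 (adjusted p = 0.0065). PBS library 2 held the highest level of both genes, and the groups did not overlap. Plasma cell markers summed to 426.4 to 1460 CPM with PBS and 77.5 to 101.8 CPM with LPS, and 8 of 10 fell. The antibody joining chain Jchain was at 598, 1179, 304, 250.4 and 746 CPM with PBS and 19.004, 24.6 and 32.98 CPM with LPS. B cell markers summed to 143.8 to 201.2 CPM and 44.4 to 82.95 CPM, and 4 of 12 fell, with 1 falling without LPS library 1, 2 without LPS library 3 and 8 when replicate numbers were fitted as blocks. Neutrophil markers overlapped between the groups, at 199.5 to 1669 CPM with PBS and 168.1 to 539 CPM with LPS. Stromal and endothelial markers summed to 69.34 to 120.6 CPM with PBS and 19.19 to 43.57 CPM with LPS, where Lepr and Pdgfra were at 0 counts. Mast cell and basophil markers overlapped, at 152.4 to 428.2 CPM and 227.1 to 566.5 CPM, and the tryptases Tpsab1 and Tpsb2 were at 0 counts in every LPS library. Of these 2 lists, 9 of 13 stromal and 7 of 9 mast cell markers passed the filter on low counts. Levels with PBS of Lepr, Pdgfra, Tpsab1 and Tpsb2 are not given here, so their 0 counts are not read as falls. The 13 HSPC markers summed to 1929 to 2764 CPM with PBS and 1255 to 1431 CPM with LPS, and 8 of them fell. In sorted bulk cells, fewer cells of a type and less RNA per cell cannot be told apart.

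**Figure D1:**
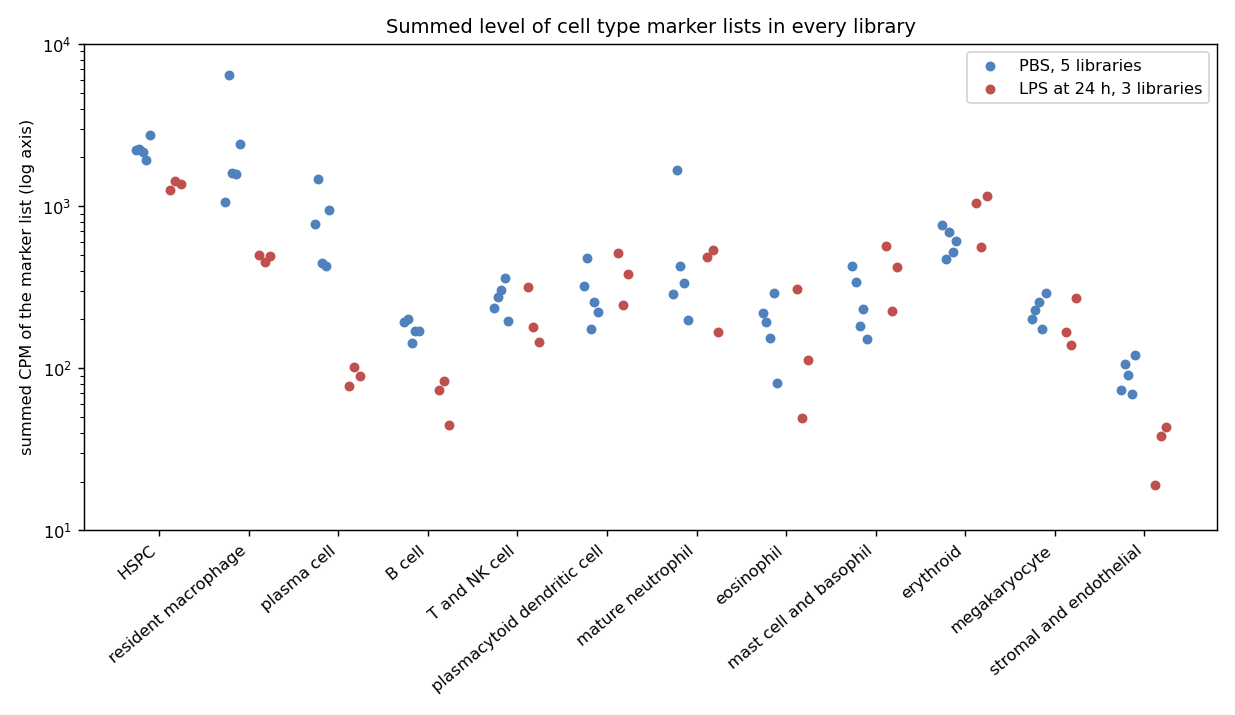
Summed CPM (log axis) of the members of 12 cell type marker lists in each of the 5 PBS libraries (blue) and 3 LPS libraries at 24 h (red). Macrophage sums run from 1053 to 6428 CPM with PBS and from 454.6 to 497.5 CPM with LPS, and plasma cell, B cell, stromal and HSPC sums also do not overlap between the groups.

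Gene groups of cell growth held the most uniform increases. Ribosomes are assembled in the nucleolus, where RNA polymerase I transcribes ribosomal RNA and a large set of processing factors, helicases and small nucleolar ribonucleoproteins matures it. Of 66 measured ribosome biogenesis factors, 65 rose and 0 fell, against 19.1% of all genes called higher, and the median change was 0.89 against -0.03 for all genes. The exception, named after its value was seen, was Nsa2, a factor of large subunit maturation, at -0.02 ± 0.12 (adjusted p = 0.92). Nucleolin (Ncl), a major nucleolar protein, was at 1834, 1369.9, 1351, 1580.0 and 1579 CPM with PBS and 4339, 3099 and 3176 CPM with LPS, a change of 1.20 ± 0.14 (adjusted p = 0.00031). Mrto4, which builds the ribosomal stalk, was at 96.1, 58.5, 57.2, 76.9 and 56.6 CPM with PBS and 311, 123 and 163 CPM with LPS, a change of 1.53 ± 0.25 (adjusted p = 0.00072). The lowest LPS library lay above the highest PBS library for both genes, with LPS library 1 highest. The same separation held for 63 of the 66 factors, against 20.6% of all tested genes. Other large increases were those of the H/ACA protein Nhp2 (1.44 ± 0.26), the growth regulator Lyar (1.42 ± 0.19) and Bop1 (1.34 ± 0.22), which processes the large subunit RNA. The catalytic subunits of RNA polymerase I rose by 0.64 ± 0.14 (Polr1a) and 0.86 ± 0.14 (Polr1b), and the methyltransferase fibrillarin (Fbl) by 1.03 ± 0.17. The count was 62 of 66 without LPS library 1.

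Protein components of the cytosolic ribosome changed far less than the factors that assemble it. Of 84 measured cytosolic ribosomal protein genes 9 rose and 1 fell, a share near or below that of all genes, and the median change was 0.28. Rpsa, of the small subunit, was at 3686, 3556, 3203, 4082 and 3194 CPM with PBS and 6909, 3191 and 3674 CPM with LPS (0.37 ± 0.24, adjusted p = 0.24). LPS library 1 was above all PBS libraries, library 3 lay within their range and library 2 at its lower edge. The median of the list over PBS was 0.85 in LPS library 1 and -0.13 and -0.05 in libraries 2 and 3, and without library 1 the median change was -0.09 with 3 called higher. Without LPS library 2, 18 were called higher, without PBS library 3 or 5 the count was 4, and with the replicate block it was 3. Among the 9 that rose was Rps27l (1.08 ± 0.22), a paralog of Rps27 that is also a p53 target. The gene that fell was Rpl3l, the striated muscle paralog of Rpl3, which is at low levels here. Reads of ribosomal protein genes and their many pseudogenes may be split, and how reads with several matches were counted is not given. Host transcripts of small nucleolar RNAs, which share the terminal oligopyrimidine start of ribosomal protein messages, rose in 8 of 16 cases with a median of 0.59, in 3 of 16 without LPS library 1 and in 5 of 16 without PBS library 2. Snhg3 was at 19.98, 16.1, 15.8, 14.8 and 14.1 CPM with PBS and 60.4, 40.9 and 34.4 CPM with LPS, a change of 1.48 ± 0.24. Gas5 did not pass the test (0.30 ± 0.23).

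Translation factors and tRNA charging enzymes rose with ribosome assembly. Initiation and elongation factors were higher for 32 of 44 members and lower for 1, with a median change of 0.71. Eif2b3, a subunit of the guanine exchange factor that recharges eIF2 and sets the rate of initiation, was at 33.6, 19.9, 22.3, 26.4 and 23.1 CPM with PBS and 89.7, 48.5 and 64.8 CPM with LPS, a change of 1.43 ± 0.20 (adjusted p = 0.00048). The elongation factor Eef1a1 did not pass the test (-0.12 ± 0.15). Aminoacyl-tRNA synthetases, which join amino acids to tRNAs, rose for 29 of 39 members and fell for 0, with a median of 0.70. Glycyl-tRNA synthetase (Gars) went from 158, 109, 121, 144 and 124 CPM with PBS to 349, 250.3 and 279 CPM with LPS, a change of 1.16 ± 0.13 (adjusted p = 0.00031), and the groups did not overlap. When LPS library 1 was left out, 31 translation factors and 28 synthetases were higher.

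**Figure D2:**
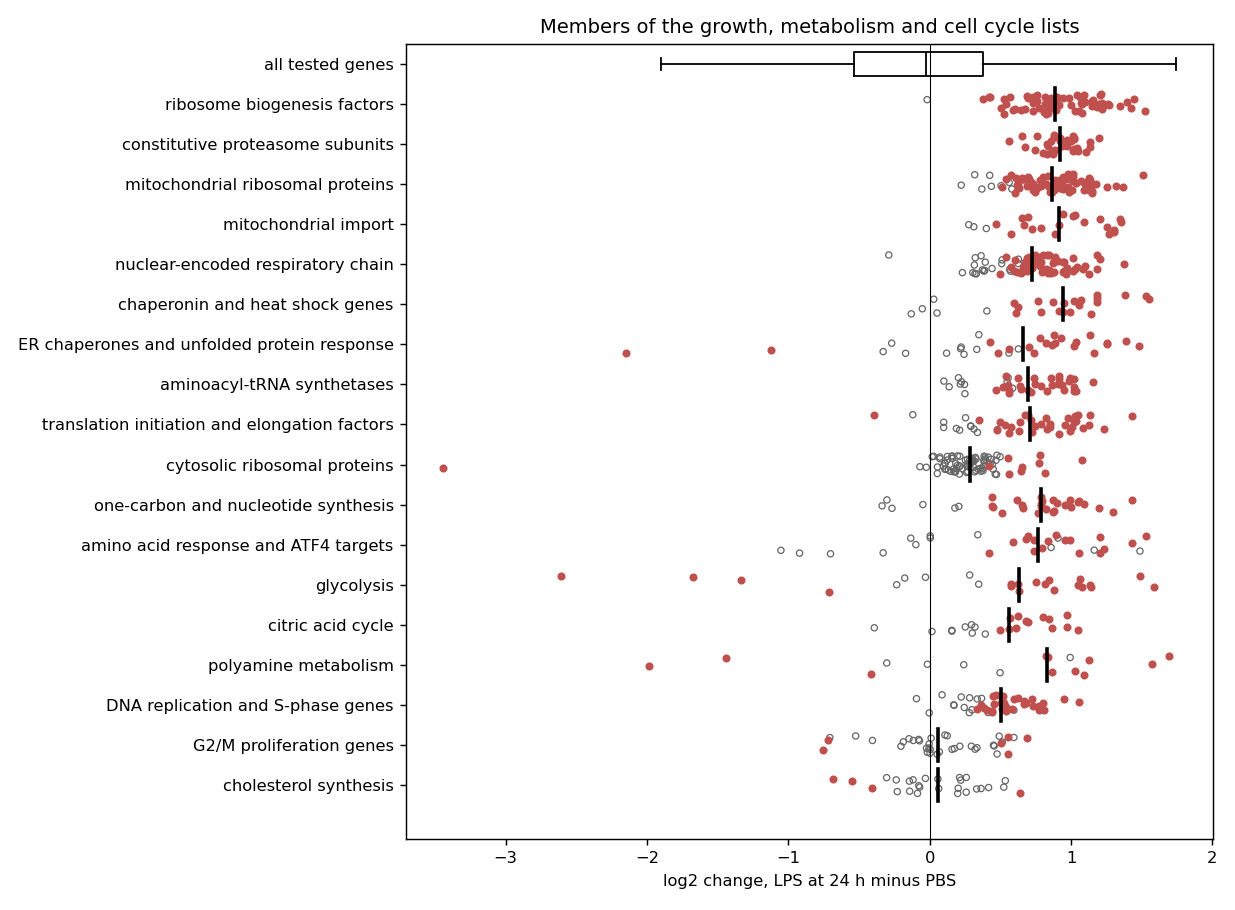
Log2 change between LPS at 24 h and PBS for each tested member of 18 gene lists (filled red, adjusted p below 0.05; open grey, not called; black bar, median of the list), below a box plot of all 14920 tested genes (box, quartiles; whiskers, 1.5 times the interquartile range). Ribosome biogenesis factors and proteasome subunits lie almost wholly right of 0, with medians of 0.89 and 0.92, while cytosolic ribosomal proteins centre on 0.28 and G2/M genes on 0.06.

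Genes of protein quality control rose across their lists. The proteasome degrades ubiquitin-tagged proteins through a core of alpha and beta subunits capped by a regulatory particle. All 33 constitutive subunits measured rose, with changes from 0.56 to 1.20 and a median of 0.92, and for all 33 the LPS libraries lay above the PBS libraries. The catalytic subunit Psmb5 was at 136, 94.3, 89.8, 122 and 90.8 CPM with PBS and 345, 169 and 176 CPM with LPS, a change of 1.11 ± 0.22 (adjusted p = 0.0016). Psmd5, an assembly chaperone of the regulatory particle, had the smallest change (0.56 ± 0.13). With LPS library 1 left out, 30 of 33 were called and the median was 0.69. The inducible subunit of the immunoproteasome Psmb10 rose by 1.02 ± 0.31 and the activator subunit Psme2 by 0.96 ± 0.24. Both calls rested on LPS library 1, with adjusted p = 0.13 and 0.084 without it.

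Proteasome genes are known targets of the factor Nfe2l1, which binds antioxidant response elements in their promoters. The stretch before the start of Psmb5 is shown because it holds such a core. It lies on chromosome 14, at chr14:54617996-54618125 of GRCm38.p6, minus strand, read 5′ to 3′ up to the RefSeq start, and capitals mark the match to TGACNNNGC.
Psmb5: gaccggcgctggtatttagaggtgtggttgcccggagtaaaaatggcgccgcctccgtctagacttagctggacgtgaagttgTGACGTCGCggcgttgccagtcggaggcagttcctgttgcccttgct
Of 27 proteasome promoters in the RefSeq table, 5 (18.5%) held the core on either strand within 250 bases before the start, against 10.1% of all 27025 promoters and 12.1% of the 10853 tested genes with a promoter in the table. The match describes letters only.

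Chaperones of the cytosol and the mitochondrial matrix rose for 20 of 25 members and fell for 0, with a median of 0.94. Hspd1 and Hspe1 form the mitochondrial folding chamber and are transcribed from a shared promoter region. Hspd1 was at 641, 391, 374, 506 and 434 CPM with PBS and 1827, 1145 and 1164 CPM with LPS, a change of 1.55 ± 0.23 (adjusted p = 0.00049). Hspe1 was at 211, 145, 116, 155 and 142 CPM and 737, 281 and 314 CPM, a change of 1.53 ± 0.28 (adjusted p = 0.0012). Both were higher in every LPS library than in any PBS library. The cytosolic chaperonin subunit Cct6a (1.19 ± 0.17), the constitutive chaperone Hspa8 (1.02 ± 0.17) and its exchange factor Hsph1 (1.38 ± 0.30) also rose. In the endoplasmic reticulum (ER), where secreted proteins fold, 19 of 32 chaperone and stress genes rose and 2 fell, with a median of 0.66, and 12 rose without LPS library 1. The ER chaperone BiP (Hspa5) was at 1100.2, 592, 756, 1016 and 473 CPM with PBS and 2154, 1565 and 1909.6 CPM with LPS, a change of 1.25 ± 0.27. Sdf2l1 (1.48 ± 0.33) and Manf (1.39 ± 0.28), both induced when ER proteins misfold, rose with it. The sensor of that response, Ern1 (IRE1), moved the other way, from 315, 144, 181, 182 and 133 CPM with PBS to 68.1, 105 and 90.5 CPM with LPS, a fall of 1.12 ± 0.29 (adjusted p = 0.0078, and 0.053 without LPS library 1). Its substrate Xbp1 did not pass the test (0.56 ± 0.27). The other member that fell was Derl3, which is on the plasma cell marker list, and the summed plasma cell markers fell as well. Their part in these values was not tested.

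Genes of the mitochondrion encoded in the nucleus rose in 3 groups. Mitochondrial ribosomal proteins were higher for 69 of 77 members, with a median of 0.87. Import machinery of the TOM and TIM complexes rose for 20 of 23, with a median of 0.92. Respiratory chain subunits rose for 60 of 79, with a median of 0.73, and 0 members of the 3 groups fell. Mrpl12 was at 139.5, 87.7, 82.04, 106 and 85.6 CPM with PBS and 453, 192 and 211 CPM with LPS, a change of 1.51 ± 0.26 (adjusted p = 0.00088). Tomm5, a small subunit of the import pore, was at 86.999, 59.8, 49.7, 64.9 and 55.02 CPM and 247, 107 and 129 CPM, a change of 1.35 ± 0.24. Cytochrome c (Cycs), the mobile electron carrier, was at 210.2, 145, 119, 159 and 117 CPM and 598, 289 and 282 CPM, a change of 1.38 ± 0.27. In all 3 genes the groups did not overlap and LPS library 1 held the top value. The respiratory chain depended most on that library: its list median over PBS was 1.30 there and 0.35 in each of the other 2 libraries, and 23 of 79 members were called without it. With the replicate block the count was 34. Mitochondrial ribosomal proteins stayed at 54 of 77 and import genes at 14 of 23 without LPS library 1. The 13 genes of the mitochondrial genome are listed at 0 in every library and were not tested.

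The transcription factor ATF4, which is translated when amino acids are scarce or eIF2 is phosphorylated, is known to drive genes of amino acid supply. Of 30 measured transcripts of its targets 17 rose, 13 were not called and 0 fell, with a median of 0.77, and 15 rose without LPS library 1. Asparagine synthetase (Asns) was at 36.4, 18.4, 32.1, 32.9 and 34.5 CPM with PBS and 113, 63.6 and 91.7 CPM with LPS, a change of 1.53 ± 0.35 (adjusted p = 0.0039). The mitochondrial folate enzyme Mthfd2 was at 48.4, 34.6, 24.9, 35.6 and 29.8 CPM and 121, 75.9 and 84.1 CPM, a change of 1.43 ± 0.22 (adjusted p = 0.00053). Every LPS library exceeded every PBS library in both. The serine synthesis enzymes Psat1 (1.20 ± 0.15) and Phgdh (0.95 ± 0.16) and the leucine transporter subunit Slc7a5 (1.21 ± 0.17) also rose. Atf4 itself rose by 0.79 ± 0.22 (adjusted p = 0.01, and 0.10 without LPS library 1). Trib3 and Ddit3, the targets tied to cell death under prolonged stress, did not pass the test (-0.70 ± 0.54 and 0.34 ± 0.36).

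The stretch before the start of Asns is printed because it carries the amino acid response element through which ATF4 is known to act. It lies on the minus strand of chromosome 6, at chr6:7693210-7693339 of GRCm38.p6, and capitals mark the match to TGATGNAA.
Asns: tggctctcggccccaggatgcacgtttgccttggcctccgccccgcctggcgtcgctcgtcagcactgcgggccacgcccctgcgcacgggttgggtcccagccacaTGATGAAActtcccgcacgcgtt
The element was found on either strand within 250 bases before the start in 5 of 26 promoters of the list (19.2%), in 3.53% of all promoters in the RefSeq table and in 2.04% of the tested genes with a promoter there.

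Purine, pyrimidine and folate pathways rose for 26 of 32 members, with a median of 0.79 and none lower, and 24 rose without LPS library 1. Ribonucleotide reductase subunit Rrm2, which makes deoxynucleotides for DNA synthesis, was at 216, 159.9, 144, 172 and 131 CPM with PBS and 429.5, 311 and 288 CPM with LPS, a change of 1.06 ± 0.24 (adjusted p = 0.0041). The purine enzyme Gart rose by 1.00 ± 0.16 and the nucleoside diphosphate kinase Nme1 by 1.20 ± 0.25. Paics, a neighbouring step of purine synthesis, did not pass the test (0.18 ± 0.13). Polyamines are small cations needed for translation. Transcripts of 2 enzymes of their synthesis rose. Ornithine decarboxylase (Odc1) was at 328, 162, 187, 233 and 208 CPM with PBS and 904, 495 and 602 CPM with LPS, a change of 1.58 ± 0.23 (adjusted p = 0.00049). Spermidine synthase (Srm) was at 178, 86.1, 92.4, 128 and 86.8 CPM and 551, 248 and 312 CPM, a change of 1.70 ± 0.29 (adjusted p = 0.00079). No LPS value of either gene reached down to the PBS range. Eif5a, the translation factor that carries a hypusine made from spermidine, rose by 1.13 ± 0.16. Spermine oxidase (Smox), which breaks polyamines down, fell by 1.44 ± 0.40 (adjusted p = 0.012, and 0.069 without LPS library 1). In all, 8 of 16 polyamine genes rose and 3 fell, and 0 fell without that library. The count of 3 became 1 without LPS library 3 or without PBS library 1, 2 or 5.

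Glycolysis changed by isoform. Of 24 genes 15 rose and 4 fell, with a median of 0.63, and 10 rose without LPS library 1. Lactate dehydrogenase A (Ldha), which favours lactate production, was at 978, 561, 540.4, 726 and 572 CPM with PBS and 2712, 1576 and 1811 CPM with LPS, a change of 1.59 ± 0.20 (adjusted p = 0.00040). Ldhb, whose enzyme favours the reverse reaction, was at 40.1, 43.1, 40.8, 45.2 and 43.6 CPM and 15.1, 14.1 and 10.8 CPM, a change of -1.68 ± 0.32 (adjusted p = 0.0014). The 2 isoforms thus separated the groups in opposite directions. The lactate exporter Slc16a1 rose by 1.49 ± 0.21 and enolase Eno1 by 1.14 ± 0.23, and the aldolase isoform Aldoc fell by 2.61 ± 0.41. In the citric acid cycle 13 of 22 genes rose and 0 fell, with a median of 0.56, led by malate dehydrogenase Mdh2 (1.05 ± 0.18). In cholesterol synthesis 1 of 27 genes rose and 3 fell, below the shares of all genes (19.1% and 18.5%), with a median of 0.06. The falling count was 1 without LPS library 1, without PBS library 5 or with the replicate block. The regulator of cholesterol synthesis Srebf2 fell by 0.69 ± 0.15 and the rate-limiting Sqle did not pass the test (0.20 ± 0.17). Antioxidant genes and targets of NRF2 rose for 14 of 29 members and fell for 2, beside 19.1% and 18.5% of all genes. Their median was 0.57. Without LPS library 1 the rising count was 3, in a setting that called 1798 of 15257 genes higher. It was 8 to 9 without PBS library 2, 3 or 5. With the replicate block 8 rose. Mitochondrial peroxiredoxin Prdx3 rose by 0.96 ± 0.15 and thioredoxin reductase Txnrd1 by 0.49 ± 0.10.

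Ldha is shown as the example of a growth gene with an E-box, CACGTG, the site that Myc with Max and several other factors can bind. The stretch lies on the plus strand of chromosome 7, at chr7:46845674-46845803 of GRCm38.p6, with the E-box in capitals.
Ldha: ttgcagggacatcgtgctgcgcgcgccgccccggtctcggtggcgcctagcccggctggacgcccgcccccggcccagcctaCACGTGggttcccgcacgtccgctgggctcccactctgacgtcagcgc
E-boxes were found within 250 bases before the start in 5 of 60 ribosome biogenesis promoters (8.33%), 4 of 68 mitochondrial ribosomal protein promoters (5.88%), 5 of 28 nucleotide synthesis promoters (17.9%), 6.05% of all promoters and 8.21% of the tested genes with a promoter in the table. Most of the growth genes that rose have no such letters in this window.

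The Myc network joins Myc and its relatives with the partner Max and the factors that compete for it. Myc was at 326, 279, 251, 262 and 261 CPM with PBS and 424, 321 and 481 CPM with LPS, a change of 0.57 ± 0.20 (adjusted p = 0.034). The lowest LPS value lay inside the PBS range, and the call was lost without LPS library 1 (adjusted p = 0.095) or 3 (0.15), without any 1 of PBS libraries 2 to 5 (0.057 to 0.068), with upper-quartile factors (0.091) and with the replicate block (0.11). Mycn, whose protein can stand in for Myc in stem cells, was at 25.6, 28.96, 19.4, 17.7 and 30.2 CPM with PBS and 5.75, 8.10 and 7.21 CPM with LPS, a change of -1.79 ± 0.42 (adjusted p = 0.0046). Mycl fell by 1.93 ± 0.47 (adjusted p = 0.0055). Mxd4, which competes with Myc for the partner Max, was at 77.3, 98.2, 101, 88.9 and 86.9 CPM and 23.6, 35.6 and 28.96 CPM, a change of -1.62 ± 0.23 (adjusted p = 0.00049). The groups did not overlap in Mycn, Mycl or Mxd4. Over the 15 genes of the network 4 rose and 3 fell, near the shares of all genes (19.1% and 18.5%). With upper-quartile scaling 1 rose and 6 fell, without LPS library 1 the counts were 1 and 4, and with the replicate block 1 and 3. Without PBS library 2 or 5, 2 rose.

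The cell cycle lists split by phase. Genes of DNA replication and S phase rose for 31 of 45 members and fell for 0, with a median of 0.51, for 17 without LPS library 1 and for 20 with upper-quartile factors. The replicative helicase subunit Mcm5 was at 429, 359, 355, 471 and 404 CPM with PBS and 738, 589.8 and 542 CPM with LPS, a change of 0.63 ± 0.16 (adjusted p = 0.0065). The origin subunit Orc1 rose by 0.95 ± 0.13. Cyclin E1 (Ccne1), which drives entry into S phase, was at 22.7, 16.3, 13.1, 14.97 and 10.7 CPM and 52.6, 38.6 and 33.4 CPM, a change of 1.42 ± 0.23 (adjusted p = 0.00067), and Ccne2 rose by 0.96 ± 0.21. In each of these genes the LPS libraries lay above the PBS libraries. Few genes of G2 and mitosis were called: 4 of 38 rose and 2 fell, below the shares of all genes (19.1% and 18.5%), with a median of 0.06. Without LPS library 1 the counts were 0 and 0. The proliferation antigen Mki67 was at 629, 781, 1043, 774 and 909 CPM with PBS and 467, 755 and 653 CPM with LPS, a difference that did not pass the test (-0.41 ± 0.22, adjusted p = 0.16). The CDK inhibitor p27 (Cdkn1b), a brake on entry to S phase, fell by 0.80 ± 0.22 (adjusted p = 0.0096, and 0.072 without LPS library 1). Cyclin G2 (Ccng2), a gene of resting cells, was at 36.998, 53.2, 45.1, 36.95 and 46.95 CPM with PBS and 9.92, 24.4 and 13.2 CPM with LPS, a change of -1.46 ± 0.33 (adjusted p = 0.0035). Of the 27 cyclins, CDKs and their inhibitors 7 rose and 6 fell, beside 19.1% and 18.5% of all genes. Without LPS library 1 the counts were 6 and 1.

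Of 28 targets of p53 5 were higher and 7 lower, near the shares of all genes (19.1% and 18.5%), and 5 and 4 without LPS library 1. The BH3 protein Noxa (Pmaip1) was at 5.78, 5.75, 3.16, 3.07 and 4.63 CPM with PBS and 14.1, 12.9 and 14.1 CPM with LPS, a change of 1.62 ± 0.30 (adjusted p = 0.0013). Bax, which opens the mitochondrial membrane, was at 59.6, 47.8, 40.1, 50.9 and 38.5 CPM and 145, 71.8 and 92.1 CPM, a change of 1.12 ± 0.20 (adjusted p = 0.0011), and its partner Bak1 rose by 1.03 ± 0.17. Every LPS value of Pmaip1 and Bax exceeded every PBS value. The cell cycle inhibitor p21 (Cdkn1a) did not pass the test (0.48 ± 0.35), and the antioxidant sestrin Sesn1 and the stress protein gene Trp53inp1 fell by 1.37 ± 0.23 and 2.15 ± 0.40. Among survival members of the BCL2 family, Mcl1 (-0.11 ± 0.14) and Bcl2 (-0.59 ± 0.27, adjusted p = 0.093) were not called.

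**Figure D3:**
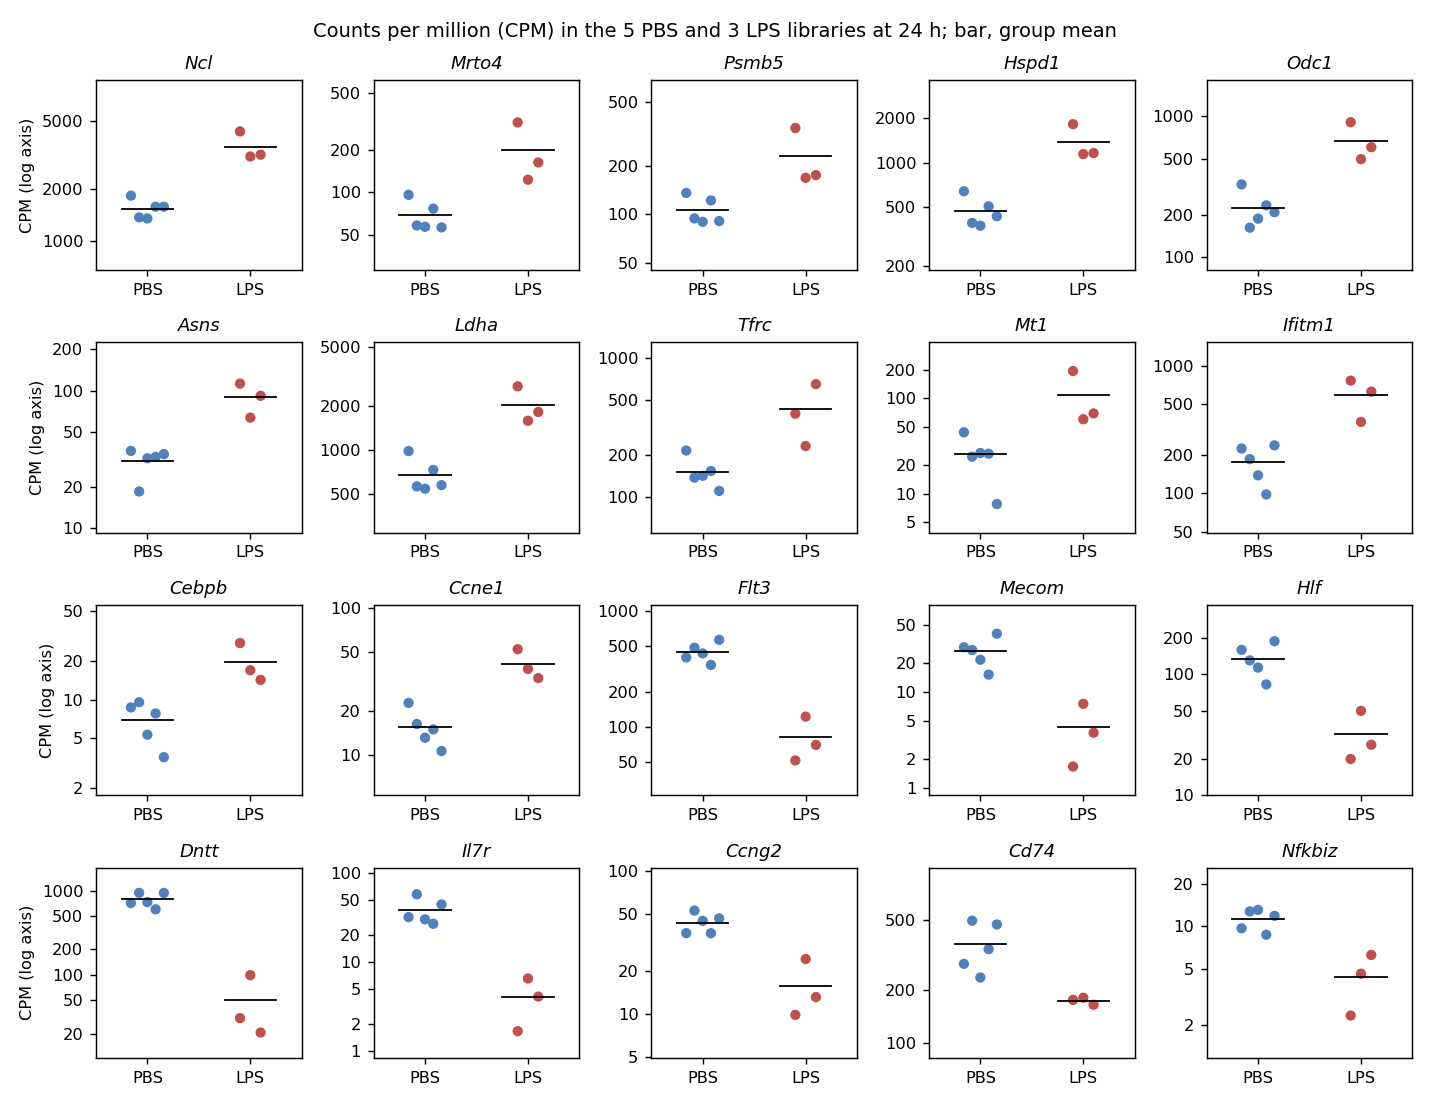
CPM (log axes) of 20 genes in the 5 PBS libraries (blue) and the 3 LPS libraries at 24 h (red), in library order from left to right within a group, with the group mean as a bar. The groups do not overlap in any panel, and the drop is steepest for Dntt, from 598 to 938 CPM with PBS to 20.5 to 98.7 CPM with LPS.

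Metal handling changed at a few genes. Metallothioneins bind zinc and copper and are induced by zinc and by inflammation. Mt1 was at 44.1, 24.5, 26.7, 26.3 and 7.79 CPM with PBS and 194, 60.5 and 69.7 CPM with LPS, a change of 2.06 ± 0.46 (adjusted p = 0.0035). Mt2 was at 11.998, 4.41, 5.74, 4.57 and 2.04 CPM and 48.9, 11.3 and 21.2 CPM, a change of 2.22 ± 0.93 that did not pass the test (adjusted p = 0.072), but did in the fit of the 8 libraries alone (0.0088). For Mt1 the groups did not overlap, and for Mt2 the lowest LPS value lay below the highest PBS value. LPS library 1 was highest for both. Over the list of 20 metallothionein, zinc transport and zinc sensor genes, 6 rose and 0 fell, beside 19.1% and 18.5% of all genes. The rising count was 3 with upper-quartile factors or without LPS library 1, LPS library 3 or PBS library 2.

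The Mt1 and Mt2 genes are neighbours on chromosome 8 and the stretches before their starts are shown side by side for their metal response cores, the letters TGCACNC or TGCGCNC bound by Mtf1, in capitals on either strand. They are on the plus strand of GRCm38.p6, at chr8:94178959-94179088 for Mt1 and chr8:94172488-94172617 for Mt2.
Mt1: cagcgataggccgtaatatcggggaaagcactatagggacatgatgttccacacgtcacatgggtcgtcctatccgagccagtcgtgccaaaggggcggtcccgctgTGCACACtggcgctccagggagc
Mt2: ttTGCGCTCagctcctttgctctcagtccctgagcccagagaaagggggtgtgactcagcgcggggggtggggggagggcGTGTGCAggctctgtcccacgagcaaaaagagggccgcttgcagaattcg
In 250 bases before the first start listed in the RefSeq table Mt1 had 1 core and Mt2 had 3, of which 2 are in the printed stretch. Bases outside this window, also near any other start of the gene, were not searched, so these are not counts for the whole promoter. The core is common, at 21.3% of all promoters in the RefSeq table and 29.2% of the tested genes with a promoter there, and was found in 7 of 17 promoters of the zinc list (41.2%).

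Iron genes changed in both directions. The transferrin receptor (Tfrc), the main route of iron uptake, was at 216, 138, 142, 154 and 111 CPM with PBS and 399, 233 and 651 CPM with LPS, a change of 1.49 ± 0.40 (adjusted p = 0.0094). Every LPS value exceeded the PBS values, with LPS library 3 highest, and without that library the adjusted p was 0.072. With the replicate block it was 0.056. The iron transporter of the endosome Slc11a2 rose by 1.02 ± 0.29 (0.070 without LPS library 3), and the iron-sulfur cluster gene Glrx5 by 1.33 ± 0.31. The exporter ferroportin (Slc40a1) was at 53.8, 536, 101, 81.05 and 148 CPM with PBS and 22.1, 12.4 and 27.5 CPM with LPS, a change of -3.15 ± 0.87 (adjusted p = 0.011). Heme oxygenase (Hmox1), which frees iron from heme, was at 59.7, 521, 87.9, 75.5 and 160.2 CPM and 15.02, 9.13 and 18.1 CPM, a change of -3.68 ± 0.99 (adjusted p = 0.0095). PBS library 2 held the top value of both. Slc40a1 and Hmox1 are also resident macrophage markers, and the other markers of that list moved the same way, from a sum of 1053 to 6428 CPM with PBS to 454.6 to 497.5 CPM with LPS. Their part in these 2 values was not tested. Over the list of iron uptake and storage, 8 of 22 rose and 3 fell, beside 19.1% and 18.5% of all genes. The rising count was 5 without LPS library 3 or with upper-quartile factors. Erythroid markers, which depend on iron, summed to 472.3 to 763.1 CPM with PBS and 559.2 to 1159 CPM with LPS, which overlapped. Of 13 tested markers 0 rose and 1 fell, with a median of 0.14. Car1 alone was at 176, 68.6, 165, 127 and 37.1 CPM with PBS and 430, 208 and 490 CPM with LPS.

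Few genes of LPS sensing were called at 24 h. Of 27 members 1 rose and 4 fell, below the share of all genes, with a median of -0.17, and 1 fell without LPS library 1 and 2 without LPS library 3 or without PBS library 2, 3 or 4. The adaptor Myd88 was at 66.1, 53.4, 52.9, 58.6 and 46.04 CPM with PBS and 124, 78.1 and 99.6 CPM with LPS, a change of 0.86 ± 0.16 (adjusted p = 0.0013), and the groups did not overlap. Tlr4 itself was at 11.9, 26.9, 14.5, 13.1 and 15.6 CPM with PBS and 13.7, 14.4 and 13.7 CPM with LPS (-0.23 ± 0.27, adjusted p = 0.53). Cd14 did not pass the test (-0.33 ± 0.37). Cd180, a TLR4-like receptor that dampens the signal, fell by 1.22 ± 0.31 (adjusted p = 0.0073, and 0.052 without LPS library 1). Among NF-kB subunits and inhibitors 3 of 24 rose and 5 fell, beside 19.1% and 18.5% of all genes. With upper-quartile factors 10 fell, in a setting that called 3490 of all genes lower in place of 2767. The median of the list minus that of all genes was -0.20 in both settings. Nfkbiz, an inducible nuclear co-factor of NF-kB, was at 9.67, 12.8, 13.1, 8.71 and 11.9 CPM with PBS and 2.32, 4.60 and 6.25 CPM with LPS, a change of -1.34 ± 0.30 (adjusted p = 0.0031). The subunit Rel fell by 0.87 ± 0.21, and Nfkbia, the feedback inhibitor that NF-kB induces, was not called (-0.48 ± 0.37).

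Of 23 measured chemokines and cytokines 2 rose and 7 fell, beside 19.1% and 18.5% of all genes. The rising count was 1 without LPS library 1, with upper-quartile factors or with the replicate block, and 4 in the fit of the 8 libraries alone. The median of the list, -0.44, was 0.08 without PBS library 2. Interleukin-12 p35 (Il12a) was at 58.98, 79.8, 58.3, 43.4 and 75.9 CPM with PBS and 8.99, 13.1 and 9.89 CPM with LPS, a change of -2.56 ± 0.35 (adjusted p = 0.00045). The chemokine Ccl3 was at 22.7, 20.6, 18.01, 15.1 and 26.9 CPM and 3.06, 3.43 and 4.91 CPM, a change of -2.43 ± 0.51 (adjusted p = 0.0024), and Il18 fell by 2.32 ± 0.48. The groups did not overlap in these 3 genes. Mif, a constitutively made cytokine, was at 292, 217, 175, 265 and 205 CPM with PBS and 935, 434 and 416 CPM with LPS, a change of 1.37 ± 0.25 (adjusted p = 0.0012). Ccl5 was at 12.2, 11.96, 5.28, 10.1 and 4.91 CPM and 31.8, 9.75 and 128 CPM, and 1 of 3 LPS libraries carried most of its difference (2.67 ± 1.12, adjusted p = 0.071). Il6 (1.35 ± 1.06) and Cxcl10 (1.15 ± 1.39), textbook early products of LPS signalling, were not called. In the fit of the 8 libraries alone Ccl5 (adjusted p = 0.0092) and Cxcl10 (0.022) were called higher and Il6 was not (0.12), and the groups did not overlap in Cxcl10. Resident macrophages also make several of these cytokines, and their markers fell as given above. The part of such cells in these values was not tested.

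Interferon is made in the response to LPS and drives effector genes against viruses. At 24 h 2 of 38 type I interferon effectors rose and 0 fell, with a median of 0.17, a share below that of all genes. Without LPS library 1 the count was 0, and in the fit of the 8 libraries alone it was 8. Oas1a, a sensor of viral RNA, was at 57.04, 44.1, 36.8, 51.4 and 35.9 CPM with PBS and 123, 64.3 and 90.8 CPM with LPS, a change of 1.04 ± 0.32 (adjusted p = 0.019, and 0.12 without LPS library 1). Bst2 (tetherin) rose by 1.32 ± 0.47 (adjusted p = 0.037, 0.26 without LPS library 1, 0.052 to 0.080 without PBS library 3, 4 or 5, and 0.055 with upper-quartile factors). The ubiquitin-like Isg15 was at 22.9, 19.3, 8.95, 14.9 and 14.8 CPM with PBS and 52.01, 24.1 and 54.1 CPM with LPS (1.42 ± 0.91, adjusted p = 0.23), with no overlap between the groups. Irf7 was not called (1.14 ± 0.97). Of 5 measured Ifitm genes, membrane proteins that block viral entry, 3 rose and 2 were not called, the lowest change being -0.64. Ifitm1 was at 225, 185, 138, 97.9 and 238 CPM with PBS and 768, 364 and 629 CPM with LPS, a change of 1.73 ± 0.33 (adjusted p = 0.0014). Ifitm3 was at 280.4, 198, 119, 154 and 167 CPM and 803, 359 and 628 CPM, a change of 1.70 ± 0.44 (adjusted p = 0.008), and Ifitm2 rose by 0.53 ± 0.12. The 3 genes separated the groups in full. They are closely similar neighbours, so reads may be split between them.

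Receptors and transducers of cytokines mostly fell or were not called. In the JAK-STAT list 1 of 26 rose and 7 fell, beside 19.1% and 18.5% of all genes. The falling count was 4 without LPS library 1, without PBS library 5 or with the replicate block. The member that rose was Ptpn2, a phosphatase that limits the pathway (0.51 ± 0.14), which was not called without LPS library 1 (adjusted p = 0.087) or with the block (0.054). Stat3, the main transducer of interleukin-10 and interleukin-6, was at 177, 164, 166, 153 and 159 CPM with PBS and 151, 148 and 168 CPM with LPS (-0.07 ± 0.16, adjusted p = 0.76). Its feedback inhibitor Socs3 was not called (0.21 ± 0.35). Socs2, induced by STAT5, was at 6.09, 8.58, 3.79, 6.14 and 8.21 CPM and 0.742, 1.85 and 2.04 CPM, a change of -2.06 ± 0.39 (adjusted p = 0.0013). The ligand-binding interleukin-10 receptor chain Il10ra was at 37.6, 78.1, 49.97, 53.2 and 59.4 CPM with PBS and 11.2, 22.2 and 14.1 CPM with LPS, a change of -1.81 ± 0.34 (adjusted p = 0.0014), and the shared chain Il10rb fell by 0.78 ± 0.21 (adjusted p = 0.01). Socs2 and both chains separated the groups. Il10ra is also expressed by macrophages, whose markers fell, and their part in its values was not tested. Over all hematopoietic cytokine receptors 16 of 35 fell and 1 rose, with a median of -0.48, and 11 fell without LPS library 1. The receptor for transforming growth factor beta Tgfbr2 (-1.18 ± 0.30) and the interferon receptor Ifnar1 (-0.48 ± 0.14, adjusted p = 0.10 without LPS library 1) fell. The member that rose was Csf2rb, the shared chain of the receptors for interleukin-3 and GM-CSF (0.97 ± 0.29, adjusted p = 0.016, 0.10 without LPS library 3 and 0.078 with the replicate block).

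In the class I pathway of antigen presentation 3 of 22 genes rose and 0 fell, a share below the 19.1% of all genes, the 3 being immunoproteasome and activator subunits, and 0 were called without LPS library 1. H2-K1 (0.35 ± 0.24) and B2m (0.25 ± 0.28) were not called. In class II, 9 of 17 fell and 1 rose, with a median of -0.88, and 6 fell without LPS library 1. H2-Ob, part of the peptide loading inhibitor, was at 110.0, 76.98, 71.7, 63.3 and 93.8 CPM with PBS and 12.1, 14.1 and 11.4 CPM with LPS, a change of -2.73 ± 0.49 (adjusted p = 0.00099). The classical chain H2-Aa fell by 1.09 ± 0.38 (adjusted p = 0.035), a call lost without any 1 of 5 libraries (PBS 2 and 5 and LPS 1, 2 and 3, adjusted p 0.060 to 0.15) and with the replicate block (0.11). The invariant chain Cd74 was at 281, 493, 235, 340.5 and 469 CPM and 176, 181 and 165 CPM, with no overlap, but was not called (-1.07 ± 0.44, adjusted p = 0.065, and 0.042 with upper-quartile factors). The class II activator Ciita was not called (-0.57 ± 0.39). B cells and macrophages carry class II genes, and the summed markers of both fell. Their part in these values was not tested.

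**Figure D4:**
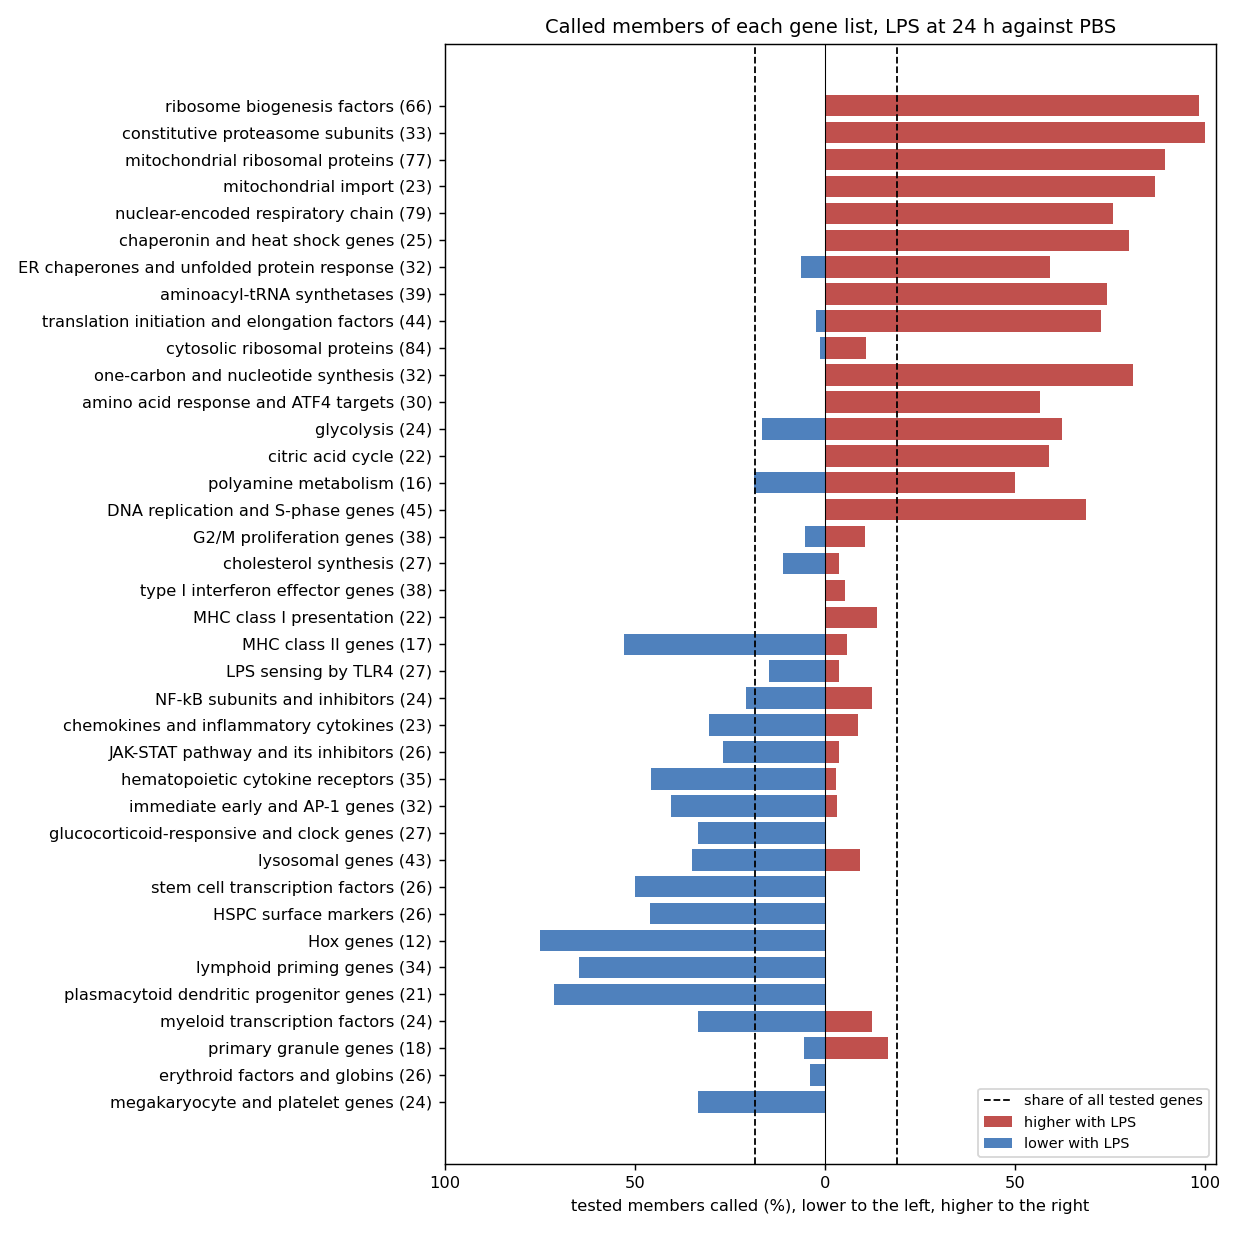
Share of the tested members of each gene list (number in brackets) called higher (red, right) or lower (blue, left) with LPS at 24 h. Dashed lines mark the shares of all tested genes, 19.1% higher and 18.5% lower. Most growth lists exceed the right line, up to 33 of 33 proteasome subunits, while cytosolic ribosomal proteins (9 of 84) stay inside it. Type I interferon effectors and TLR4 sensing lie inside both lines, and stem cell, Hox and lymphoid lists exceed the left line.

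Genes of stem cell identity fell. Of 26 transcription factors of the list 13 fell and 0 rose, against 18.5% of all genes called lower, with a median of -0.50, and 11 fell without LPS library 1. For 13 of them the LPS libraries lay below all PBS libraries, against 22.2% of all genes. Mecom (Evi1), required for long-term stem cells, was at 29.5, 27.6, 21.9, 15.3 and 40.9 CPM with PBS and 1.67, 7.55 and 3.76 CPM with LPS, a change of -2.63 ± 0.47 (adjusted p = 0.001). Hlf, a marker of the most primitive cells, was at 160.1, 131, 114, 82.7 and 189 CPM and 19.8, 49.9 and 26.1 CPM, a change of -2.08 ± 0.48 (adjusted p = 0.0043). Both separated the groups, with LPS library 1 lowest and library 2 highest of the 3. Erg (-1.14 ± 0.24), Meis1 (-1.30 ± 0.24), Prdm16 (-1.30 ± 0.30) and the homeobox gene Nkx2-3 (-2.08 ± 0.39) also fell. Gata2, shared by stem cells and the megakaryocyte, mast cell and erythroid branches, was at 91.7, 67.1, 59.1, 54.6 and 64.8 CPM with PBS and 94.6, 83.4 and 126 CPM with LPS and was not called (0.59 ± 0.43). Hox genes set the identity of primitive cells and are switched off as they mature. Of 12 measured Hox genes 9 fell and 0 rose, with a median of -1.26, and 5 fell without LPS library 1. Hoxa3 was at 8.86, 7.63, 8.66, 7.08 and 10.9 CPM with PBS and 0.927, 3.02 and 1.59 CPM with LPS, a change of -2.203 ± 0.39 (adjusted p = 0.001). Hoxa9, a member linked to leukemia, fell by 0.79 ± 0.20.

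Surface proteins used to define HSPC fell in 12 of 26 cases and rose in 0, and in 6 without LPS library 1. Flt3, the receptor of multipotent and lymphoid-primed progenitors, was at 399, 484, 433, 344 and 567 CPM with PBS and 51.5, 123 and 70.1 CPM with LPS, a change of -2.45 ± 0.45 (adjusted p = 0.0011). The stem cell protein Robo4 was at 18.7, 14.6, 21.2, 12.1 and 27.7 CPM and 0.464, 2.68 and 1.79 CPM, a change of -3.48 ± 0.58 (adjusted p = 0.00070). Procr (EPCR) fell by 1.68 ± 0.34. Flt3, Robo4 and Procr did not overlap between the groups. Cd34, whose values are given above, fell by 0.79 ± 0.22 (adjusted p = 0.012, and 0.059 without LPS library 1), and Kit was not called (-0.46 ± 0.25, adjusted p = 0.16). Sca-1 (Ly6a), an interferon-responsive protein used to gate mouse stem cells, was at 85.2, 76.3, 38.3, 32.6 and 76.01 CPM with PBS and 222, 108 and 156 CPM with LPS. The groups did not overlap, but the change did not pass the test (1.40 ± 0.68, adjusted p = 0.12), and it did in the fit of the 8 libraries alone (0.0087). Gate genes can be set by the sort, whose antibodies are not given.

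Lymphoid priming genes are those that early progenitors turn on before a lymphoid fate is fixed. Of 34 genes 22 fell and 0 rose, with a median of -1.81, and 16 fell without LPS library 1. Dntt, the terminal transferase that diversifies antigen receptors, was at 709.9, 938, 731, 598 and 936 CPM with PBS and 30.5, 98.7 and 20.5 CPM with LPS, a change of -3.97 ± 0.97 (adjusted p = 0.0057). The interleukin-7 receptor Il7r was at 31.97, 57.8, 30.2, 26.9 and 44.4 CPM and 1.67, 6.52 and 4.08 CPM, a change of -3.20 ± 0.48 (adjusted p = 0.00049). The recombinase Rag1 fell by 2.49 ± 0.76 (adjusted p = 0.018), a call lost without LPS library 1 (0.091) or 3 (0.074). Dntt, Il7r and Rag1 were lower in each LPS library than in any PBS library, and LPS library 2 held the highest of the 3 LPS values each time. Without LPS library 1 and PBS library 2 together, 10 of 34 fell. Upstream regulators fell as well. Notch1 was at 178, 198, 209, 175 and 228 CPM with PBS and 40.05, 88.5 and 52.2 CPM with LPS, a change of -1.71 ± 0.26 (adjusted p = 0.00052), and the chromatin organiser Satb1 fell by 1.59 ± 0.29. B cell markers share some genes with this list and fell in sum from 143.8 to 201.2 CPM to 44.4 to 82.95 CPM. Their part in the result was not tested. Genes of plasmacytoid dendritic progenitors fell for 15 of 21 members. Of 11 markers of mature plasmacytoid dendritic cells, among them Siglech and Ly6d, 7 fell and 1 rose, with a median of -2.25. For 9 of the 11 the LPS libraries lay below all PBS libraries, against 22.2% of all genes. Sums of the 11 overlapped (175.0 to 480.8 CPM with PBS and 245.5 to 516.5 CPM with LPS). Bst2 (397, 153 and 198 CPM) and Irf7 (106, 61.5 and 163 CPM) held most of the LPS sums. The part of such cells in the result was not tested. Siglech was at 23.1, 57.1, 14.3, 19.1 and 16.8 CPM with PBS and 0.649, 3.64 and 0.638 CPM with LPS, a change of -3.96 ± 0.81 (adjusted p = 0.002). The lineage factor Tcf4 was at 99.8, 149, 127, 111 and 155 CPM and 49.04, 72.4 and 56.1 CPM, a change of -1.11 ± 0.17 (adjusted p = 0.00049), and Ly6d fell by 3.50 ± 0.83.

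Myeloid factors split. Of 24 transcription factors 3 rose and 8 fell, beside 19.1% and 18.5% of all genes called higher and lower, so the rising share was below that of all genes. Without LPS library 1 or with the replicate block 5 fell. The 3 that rose were Cebpb, Cebpa and Id1. Cebpb, the factor that replaces Cebpa in emergency granulopoiesis, was at 8.67, 9.52, 5.28, 7.77 and 3.51 CPM with PBS and 27.9, 17.03 and 14.3 CPM with LPS, a change of 1.50 ± 0.33 (adjusted p = 0.003). Cebpa, which commits progenitors to the myeloid fate, was at 95.7, 61.1, 81.005, 98.9 and 38.5 CPM and 154, 113 and 149 CPM, a change of 0.89 ± 0.24 (adjusted p = 0.011, and 0.052 without LPS library 1). Id1, an inhibitor of E proteins, was at 5.09, 2.68, 2.93, 2.51 and 1.19 CPM and 17.3, 8.31 and 12.8 CPM, a change of 2.15 ± 0.42 (adjusted p = 0.0016). In these 3 genes all LPS values exceeded all PBS values. Irf8, the factor of monocytes and dendritic cells, fell by 0.99 ± 0.33 (adjusted p = 0.028, 0.13 without LPS library 1 or 3, 0.054 to 0.062 without PBS library 2 or 4, and 0.074 with the replicate block), and Spi1 was not called (0.36 ± 0.17). Of 18 primary granule genes 3 rose and 1 fell, both below the shares of all genes, with 1 rising without LPS library 1 and 5 without LPS library 2. Myeloperoxidase (Mpo) was at 4186, 2928, 7886, 10107 and 1938 CPM with PBS and 9987, 5645 and 7088 CPM with LPS (0.49 ± 0.49, adjusted p = 0.46), and all 3 LPS values lay inside the PBS range. Prtn3 was not called (1.12 ± 0.57). Ms4a3, a marker of granulocyte-monocyte progenitors, rose by 1.74 ± 0.63 (adjusted p = 0.04), with adjusted p = 0.24 without LPS library 1, 0.084 without PBS library 2, and 0.062 without LPS library 3 or with the replicate block. Its groups overlapped. The call was also lost with upper-quartile factors (0.053), with the limma voom test (0.053) and in the fit of the 8 libraries alone (0.057). Of 27 activating receptors and adaptors of myeloid cells 5 rose and 10 fell, beside 19.1% and 18.5% of all genes, with a median of -0.60. Without LPS library 1 the counts were 3 and 4, and without LPS library 2 they were 5 and 3. Among those that rose, Trem1 was at 8.42, 3.54, 7.97, 8.14 and 2.46 CPM with PBS and 25.1, 13.5 and 25.3 CPM with LPS, a change of 1.79 ± 0.35 (adjusted p = 0.0015). Clec5a rose by 1.52 ± 0.50 (adjusted p = 0.026, 0.15 without LPS library 1, 0.052 to 0.058 without LPS library 3 or PBS library 2, and 0.052 with the replicate block). Lipocalin 2 (Lcn2), an iron-scavenging protein of neutrophils, was not called (1.80 ± 0.73, adjusted p = 0.063), and was without PBS library 2 (0.0044).

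Erythroid genes depended on which libraries set the spread. In the fit of 17 libraries 0 of 26 genes rose and 1 fell, Hbb-bt, a globin (-1.63 ± 0.48, adjusted p = 0.015, and 0.062 without LPS library 1). In the fit of the 8 libraries alone 12 rose and 5 fell. Gata1, the master regulator of the branch, was at 27.8, 12.1, 19.6, 17.9 and 10.2 CPM with PBS and 64.99, 31.4 and 53.8 CPM with LPS, a change of 1.51 ± 0.86 (adjusted p = 0.18, and 0.0051 with 8 libraries). Klf1, which it activates, was at 16.5, 8.82, 14.2, 13.97 and 5.47 CPM and 41.6, 20.4 and 42.03 CPM, a change of 1.55 ± 1.01 (adjusted p = 0.24, and 0.0062 with 8 libraries). Both separated the groups by a small margin. The early enzyme Car1 (1.71 ± 1.28) had the same direction, and globins the opposite one (Hbb-bs -1.95 ± 1.02 and Hba-a1 -1.73 ± 1.16). In the megakaryocyte and platelet list 0 of 24 rose and 8 fell, beside 19.1% and 18.5% of all genes. Without LPS library 1, 3 fell. Without any 1 of PBS libraries 2, 3 and 5 and LPS libraries 2 and 3, or with the replicate block, 5 fell.

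**Figure D5:**
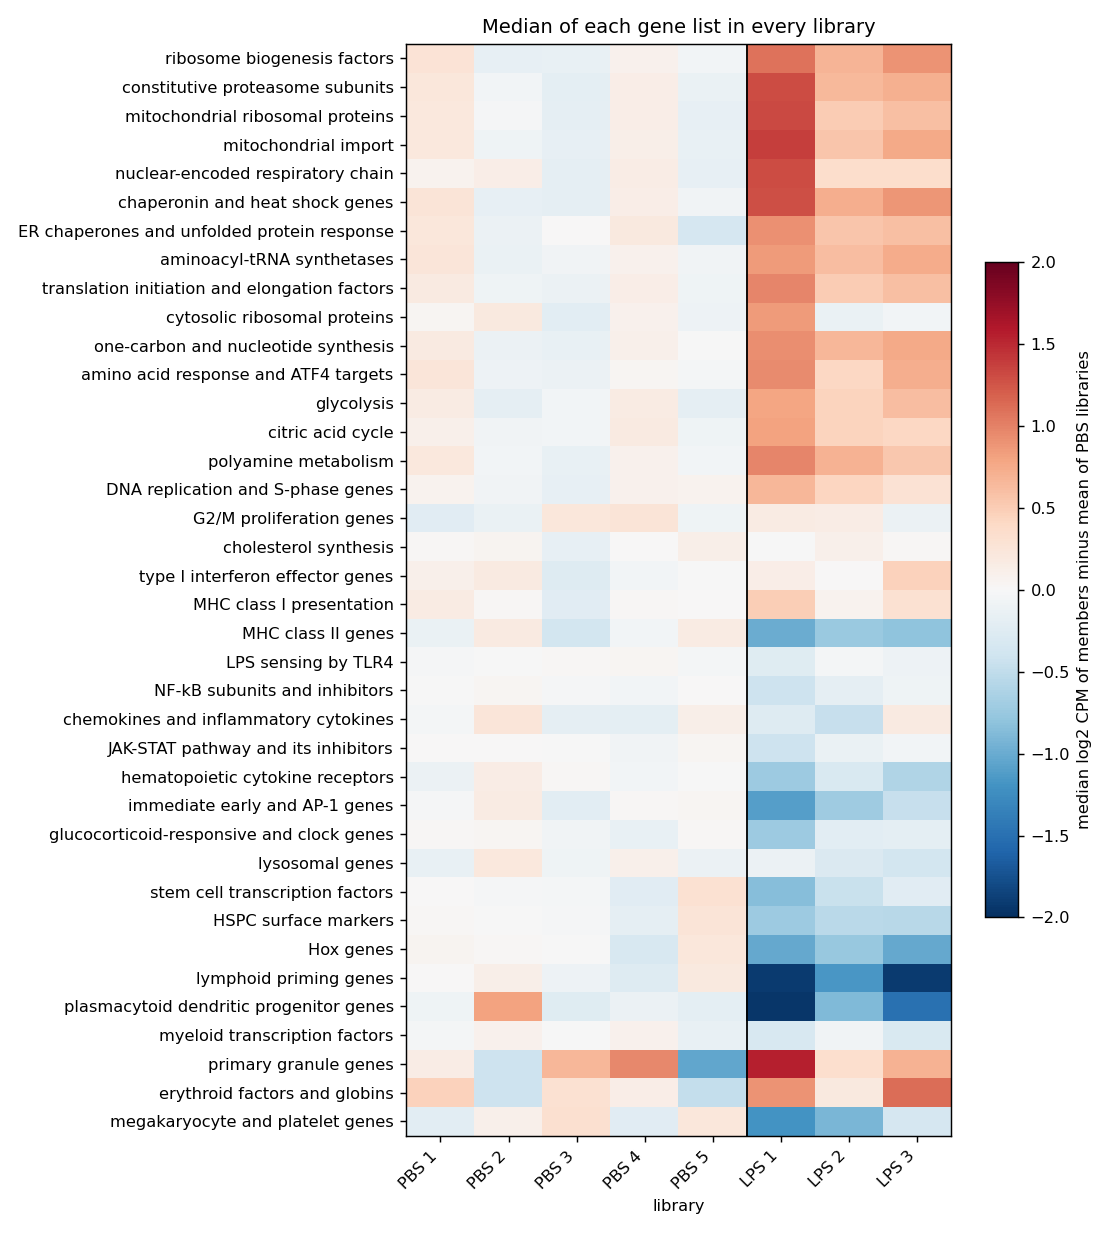
Heat map of the median over members of log2 CPM minus the mean of the PBS libraries, for each gene list (rows) in the 5 PBS and 3 LPS libraries (columns), from blue (-2 or lower) to red (2 or higher). LPS library 1 is the reddest column for growth lists, with 1.30 for the respiratory chain against 0.35 in libraries 2 and 3, and lymphoid priming is blue in all 3 LPS libraries, from -1.92 to -1.16.

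Immediate early genes, which respond within minutes to growth factors and stress and also to cell handling, fell at 24 h. Of 32 members 13 fell and 1 rose, with a median of -0.87. The count was 7 without LPS library 1 and 8 with the replicate block. Nr4a1 was at 13.1, 12.6, 9.29, 9.27 and 9.47 CPM with PBS and 1.39, 3.02 and 2.55 CPM with LPS, a change of -2.19 ± 0.40 (adjusted p = 0.0011). Zfp36, which destabilises cytokine messages, was at 132, 163, 118, 160.0 and 126 CPM and 33.3, 38.9 and 45.9 CPM, a change of -1.83 ± 0.32 (adjusted p = 0.00089). Both separated the groups. Egr1 ranged widely, at 57.5, 33.5, 79.2, 61.3 and 132 CPM with PBS and 9.46, 7.14 and 89.4 CPM with LPS, and was not called (-1.03 ± 1.04). Clock and glucocorticoid-responsive genes fell for 9 of 27 members and rose for 0, beside 18.5% and 19.1% of all genes, with 6 falling without LPS library 1. The clock activator Bmal1 (Arntl) was at 29.3, 15.7, 17.8, 19.4 and 18.2 CPM with PBS and 8.44, 9.48 and 9.38 CPM with LPS, a change of -1.14 ± 0.23 (adjusted p = 0.0019). The output gene Dbp was at 12.6, 15.1, 10.7, 9.08 and 14.2 CPM and 5.93, 4.88 and 3.64 CPM, a change of -1.36 ± 0.27 (adjusted p = 0.0018), and Per3 fell by 1.04 ± 0.26. Arntl and Dbp separated the groups. The hour of harvest is not given for either group, so it cannot be told apart from the treatment.

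In the remaining structural and regulatory lists most members were not called. Lysosomal genes were lower for 15 of 43 members and higher for 4, beside 18.5% and 19.1% of all genes. Without LPS library 1 the counts were 8 and 2. Prosaposin (Psap) was at 896, 1961, 979.8, 1261 and 1167 CPM with PBS and 475, 681 and 417 CPM with LPS, a change of -1.26 ± 0.27 (adjusted p = 0.0026), whereas cathepsin Z (Ctsz) rose by 1.23 ± 0.24. Macrophages are rich in lysosomes, and their markers fell in sum as given above. The part of such cells in the lysosomal values was not tested. Receptors for niche retention and homing fell for 11 of 30 members and rose for 2, beside 18.5% and 19.1% of all genes. The falling count was 7 without LPS library 1 or with the replicate block. The endothelial adhesion protein Pecam1 (-0.81 ± 0.15) was among those that fell. The giant scaffold protein Ahnak was at 80.97, 175, 120.3, 105 and 97.8 CPM and 11.2, 49.3 and 16.7 CPM, a change of -2.16 ± 0.47 (adjusted p = 0.0029). Regulators of DNA methylation and of clonal hematopoiesis were below the shares of all genes (19.1% and 18.5%), with 2 of 27 higher and 4 lower. Without LPS library 1 the counts were 2 and 2. Among these regulators Tet1 (-1.35 ± 0.26), Kmt2a (-0.80 ± 0.22, adjusted p = 0.064 without LPS library 1) and Ezh1 (-0.76 ± 0.14) fell, and the largest increase in the list was 0.86.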

How the data were processed

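Whole-number counts per gene symbol for 17 libraries were deposited by the authors in 1 table, and all its columns were matched to samples. The submitters' processing notes list HISAT2 2.2.0, Subread, featureCounts 2.1.1, R 4.3.2, DESeq2 and GRCm38, without their roles. The annotation, strand setting and treatment of multiply mapped reads are not given in the sources used here. Genes were filtered with filterByExpr (minimum count of 10) and tested with edgeR 4.0.16 (TMM, quasi-likelihood test) in R 4.3.3, in 1 fit of all libraries with the contrast of 3 LPS against 5 PBS libraries and Benjamini-Hochberg adjustment over 14920 genes. The script was tested on simulated counts. The members and gene lists were chosen with earlier results of these data known. Named genes were the 15 highest and 15 lowest called genes above the median level with groups that do not overlap, and, in each list, the first 2 written and up to 6 called members with the largest change, or all members of lists of at most 20. Named outside this rule, after their values were seen, were B2m, Ccl5, Cd14, Cdkn1a, Cdkn1b, Cops5, Csf2rb, Cxcl10, Ddit3, Eef1a1, Egr1, Erg, Ern1, Exosc8, Fbl, Gart, Gimap6, Gimap8, Hspa8, Ifnar1, Il6, Mcm5, Mif, Nfkbia, Notch1, Nsa2, Nup43, Paics, Pecam1, Phgdh, Polr1a, Polr1b, Prdm16, Rpsa, Satb1, Sqle, Tcf4, Tgfbr2, Trib3, Txnrd1 and Xbp1. Same-numbered PBS and LPS libraries deviated together (correlations of 0.19, 0.19 and 0.16 over genes), but 3 differently numbered pairs correlated more (PBS 4 with LPS 1 at 0.38, PBS 5 with LPS 3 at 0.25 and PBS 5 with LPS 2 at 0.20). No label says what a number shares, and a fit with replicate numbers as blocks was an alternative. The other alternatives were DESeq2 1.42.0 factors and test, upper-quartile factors, limma 3.58.1 voom, other filters, other sets of libraries and leaving out each library. Promoter stretches came from RefSeq (GRCm38.p6), which held 27025 genes and 10853 of the tested genes, and motifs were searched on both strands. Only the first start listed for each gene was used. Results on some genes are not reported here.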

Additional observations from a re-analysis of the deposited data

Results flagged for a closer look

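In 14 of 195 named genes checked (7.18%) 1 of the 5 PBS libraries lay far from the other 4, by Dixon's criterion, which chance alone meets in about 1 of 20 groups. PBS library 2 was the outlying library in 9 of them. It was highest for the macrophage genes C1qb (225 CPM, against 25.6 to 78.9 in the others), C1qc (239.8 CPM, against 23.9 to 80.8) and Cd5l (219 CPM, against 24.9 to 75.0). It was also highest for Slc40a1 (536 CPM, against 53.8 to 148), Hmox1 (521 CPM, against 59.7 to 160.2) and Tlr4 (26.9 CPM, against 11.9 to 15.6). For the dendritic and lymphoid genes Siglech and Ly6d it was at 57.1 CPM (others 14.3 to 23.1) and 112 CPM (others 23.5 to 47.2). For Asns it was lowest, at 18.4 CPM against 32.1 to 36.4. PBS library 1 was highest for Ern1 (314.7 CPM, against 133 to 182), Arntl (29.3 CPM, against 15.7 to 19.4) and Myl10 (251.5 CPM, against 64.4 to 90.9). PBS library 3 was lowest for Cxcl10 (1.61 CPM, against 3.54 to 3.79), and PBS library 5 was highest for Cd34 (824.7 CPM, against 633.9 to 686).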

How the results depend on the processing

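Of 154 named genes that were called, 129 stayed called in every setting fixed at the start. Many of these were named because they were called with a large change, so this share does not stand for all genes. Of all 5616 called genes, 3236 stayed called in the same direction without LPS library 1. Leaving out 1 library at a time gave 3361 to 5443 called genes, 1798 to 2818 higher and 1563 to 2704 lower. With at least a 2-fold change the ranges were 1161 to 2420, 126 to 741 higher and 1035 to 1679 lower. LPS library 1 set every lower bound, and 22 named calls were lost without it. Without LPS library 1 and PBS library 2 together, chosen after seeing the data, the counts were 2381, 1312 and 1069, and with 2-fold 822, 90 and 732. In that setting 51 of the 154 named calls were lost, among them those of C1qa, Hmox1, Dntt, Asns, Mt1 and Ifitm3. Upper-quartile factors left 215 genes at least 2-fold higher, and the 6 libraries numbered 1 to 3, also chosen after seeing the data, left 1838 higher. With the replicate block 4163 genes were called, and 8 named calls were lost, each given beside its gene; it changed no other named call. Only genes that were not called changed sign, and the cause was not tested. Nsa2 was at 0.0034 with no filter and, without both libraries named above, Rpsa at -0.033 and Tlr4 at 0.042. Leaving out 1 library at a time gave log2 changes of -0.11 to 0.057 for Nsa2, -0.033 to 0.58 for Rpsa, -0.32 to 0.017 for Tlr4 and -0.28 to 0.44 for Socs3. Of the 3731 least abundant genes 88 were called higher and 973 lower, and what depth limits there was not tested.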

Other observations

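Families grouped by the stem of their symbols, chosen after their values were seen, held further groups of members that moved one way. All 10 measured subunits of the RNA exosome (Exosc), which trims and degrades RNA, rose with a median change of 0.77. Exosc8 was at 96.0, 72.4, 75.2, 87.2 and 78.2 CPM with PBS and 256, 125 and 141 CPM with LPS. All 9 measured subunits of the COP9 signalosome (Cops), which regulates cullin ubiquitin ligases, rose with a median of 0.62, and Cops5 changed by 0.83 ± 0.12. RNA polymerase subunits (Polr) rose for 21 of 28 members and nucleoporins (Nup) for 16 of 20, with medians of 0.65 and 0.55 and 0 lower. Nup43 was at 28.7, 27.0, 20.8, 28.1 and 22.9 CPM with PBS and 82.7, 44.3 and 53.1 CPM with LPS. In each of the 3 genes named here the LPS libraries lay above the PBS libraries, with LPS library 1 highest.

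The Gimap family, GTPases of lymphocytes that also occur in stem cells, fell for 6 of 9 members with a median of -2.07 and 0 higher. Gimap6 was at 104, 127, 110.6, 80.6 and 179 CPM with PBS and 13.1, 24.2 and 14.7 CPM with LPS, a change of -2.79 ± 0.44, and Gimap8 changed by -2.58 ± 0.44. Toll-like receptors fell for 6 of 12 members, with 0 higher, beside 18.5% of all genes lower. Macrophages, B cells and plasmacytoid dendritic cells carry several of them, and 19 of 20, 4 of 12 and 7 of 11 of their markers fell. Their part was not tested. Among single genes, Cmah, the enzyme that makes the sialic acid Neu5Gc, was at 49.6, 76.4, 56.1, 37.6 and 63.2 CPM with PBS and 2.97, 10.4 and 2.30 CPM with LPS, a change of -3.42 ± 0.72. The lymphoid progenitor gene Myl10 fell by 3.96 ± 0.93. The ubiquitin-conjugating enzyme Cdc34 rose by 1.56 ± 0.23 and the pyrophosphatase Ppa1 by 1.50 ± 0.22.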
